A study of Mus musculus with 10 samples.

Results

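Galanin is a neuropeptide made from the precursor gene Gal, and it acts through the receptors Galr1, Galr2 and Galr3. The genes described here are these 4 and, for contrast, the precursor genes Calca (calcitonin and calcitonin gene-related peptide), Tac1 (substance P and neurokinin A), Npy (neuropeptide Y) and Vip (vasoactive intestinal peptide). They were found by name among the non-control probes of a mouse expression array, 8 genes with 12 probes among 27670 genes and 41174 probes. Gal drew attention because its signal differed between p53-null and wild-type lung, so its difference is given as a description without a test. The other 7 genes were added by name with the same comparison known, and they too are described without a p-value.

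Neuropeptides are cut from larger precursors, packed into dense-core vesicles and released from nerve fibres and neuroendocrine cells. In the lung the known sources are sensory and autonomic fibres around airways and vessels, and the neuroendocrine cells of the airway lining. Galanin receptors are G protein-coupled: Galr1 and Galr3 act mainly through inhibitory G proteins, which lower cyclic AMP, and Galr2 mainly through Gq and phospholipase C.

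The samples were whole lungs of male mice aged 8 weeks, frozen after 30 min of inhaled saline aerosol. Wild-type C57BL/6J mice (5 arrays) were compared with p53-null mice labelled with the same background (5 arrays), which lack the transcription factor p53 in all cells. The labels do not name the null allele, and the series' design calls the 5 samples of each genotype biological replicates. Each RNA sample was labelled with Cy3 and hybridised to its own Agilent array, and between 71.4% and 84.0% of non-control spots were well above background. In whole lung, fewer cells of a type and less RNA per cell cannot be told apart.

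Values are log2 intensities relative to the 75th percentile of each array, and differences are p53-null minus wild type with the standard error (SE) of a limma fit, n = 5 per group. A gene was tested where its leading probe, the brightest of its probes, was well above background on at least 5 arrays, and it was called at a limma adjusted p under 0.05 over 21116 genes. Of all genes tested, 7.49% were called.

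The targeted gene, Trp53, was checked first, and 1 array stood apart. A Trp53 probe printed in 10 spots read -1.67 to -1.43 on wild-type arrays 1 to 4 and -3.15 to -2.66 on the p53-null arrays. On the array labelled wild type 5 it read -2.22, between the groups, and the difference over all arrays was -1.28 ± 0.16 (limma adjusted p = 0.0123 over all probes). A second Trp53 probe, in 1 spot, did not separate the genotypes (0.31 ± 0.28). The number of called genes was 6619 without that array and 1581 with it, and the cause of this shift was not tested. On the leading Med1 probe that array read -0.035, within the wild-type range of -0.17 to 0.044 (p53-null 1.90 to 2.11). On the probe of the kisspeptin receptor gene Kiss1r it read -2.93, within the p53-null range of -3.07 to -2.85. The genotype of this array could not be settled from these values, and it was not tested. This array also had the lowest 75th percentile of intensity of the 10 arrays, 2381 against 2799 to 4398 on the others. The array was kept in the wild-type group as labelled, and every wild-type mean with n = 5 includes it. The results below are also given without it. Skeletal muscle genes were high on 3 arrays (wild type 2, p53-null 4, p53-null 5), and squamous epithelial genes on the first and last of these. Lung epithelial markers were measured in both groups, 12 of 12 passing the background filter and 1 called (Nkx2-1, lower). That was 8.33%, against 7.49% of all genes. Their mean deviations were -0.087 to 0.19 in wild type and -0.17 to 0.087 in p53-null lung.

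What each array reads is a probe of 60 bases. The probes of Gal, Galr2, Galr3, Npy and Tac1 shown here lie in coding sequence, so they show which part of each message was measured. The Npy and Tac1 probes run across an intron in the genome, from the coordinates in the files (mm7). Capitals mark the start of the processing signal after the peptide (a glycine codon followed by lysine or lysine and arginine codons), where the enzymes that cut and amidate neuropeptides act.
Gal: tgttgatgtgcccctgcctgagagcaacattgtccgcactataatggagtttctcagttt
Galr2: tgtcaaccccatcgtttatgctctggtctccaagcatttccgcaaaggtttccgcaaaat
Galr3: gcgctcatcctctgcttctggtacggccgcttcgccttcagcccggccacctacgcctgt
Npy: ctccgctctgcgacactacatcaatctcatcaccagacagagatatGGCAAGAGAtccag
Tac1: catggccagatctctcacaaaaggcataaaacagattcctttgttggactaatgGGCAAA
The Gal probe sits at chr19:3305949-3306008 on the minus strand and lies in the part of the precursor that follows the galanin peptide. The receptor probes sit at chr11:116392445-116392504 (Galr2) and chr15:79126069-79126128 (Galr3), both on the plus strand. The Npy probe spans chr6:49783794-49787556 and the Tac1 probe chr6:7510608-7512022. Galr2 shares chromosome 11 with Trp53, 46.7 Mb away. Gal has 1 probe in 1 spot per array, so no second probe checks its values; none of its 10 spots was flagged as an outlier or saturated.

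Gal signal was higher in p53-null lung on every array. The 5 wild-type arrays read -0.79, -0.57, -0.81, -0.44 and, for the array labelled wild type 5, -0.029. The 5 p53-null arrays read 1.59, 1.11, 2.10, 1.85 and 2.20. The groups did not overlap: the lowest p53-null array, array 2, lay 1.14 above the highest array labelled wild type, a gap larger than the range of 0.78 among the wild-type arrays and of 1.09 among the p53-null arrays. Means were -0.53 ± 0.32 (SD, n = 5) in wild-type and 1.77 ± 0.44 (SD, n = 5) in p53-null lung, a difference of 2.30 ± 0.23 or 4.93-fold. In deposited intensity units, not scaled between arrays, Gal ran from 2117 to 3241 in wild type and from 7279 to 15407 in p53-null lung. Among the 8 genes, Gal alone had groups that did not overlap. Groups did not overlap for 9.32% of the genes tested with a value on all arrays, and since Gal was chosen on this comparison nothing is read from this count.

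**Figure D1:**
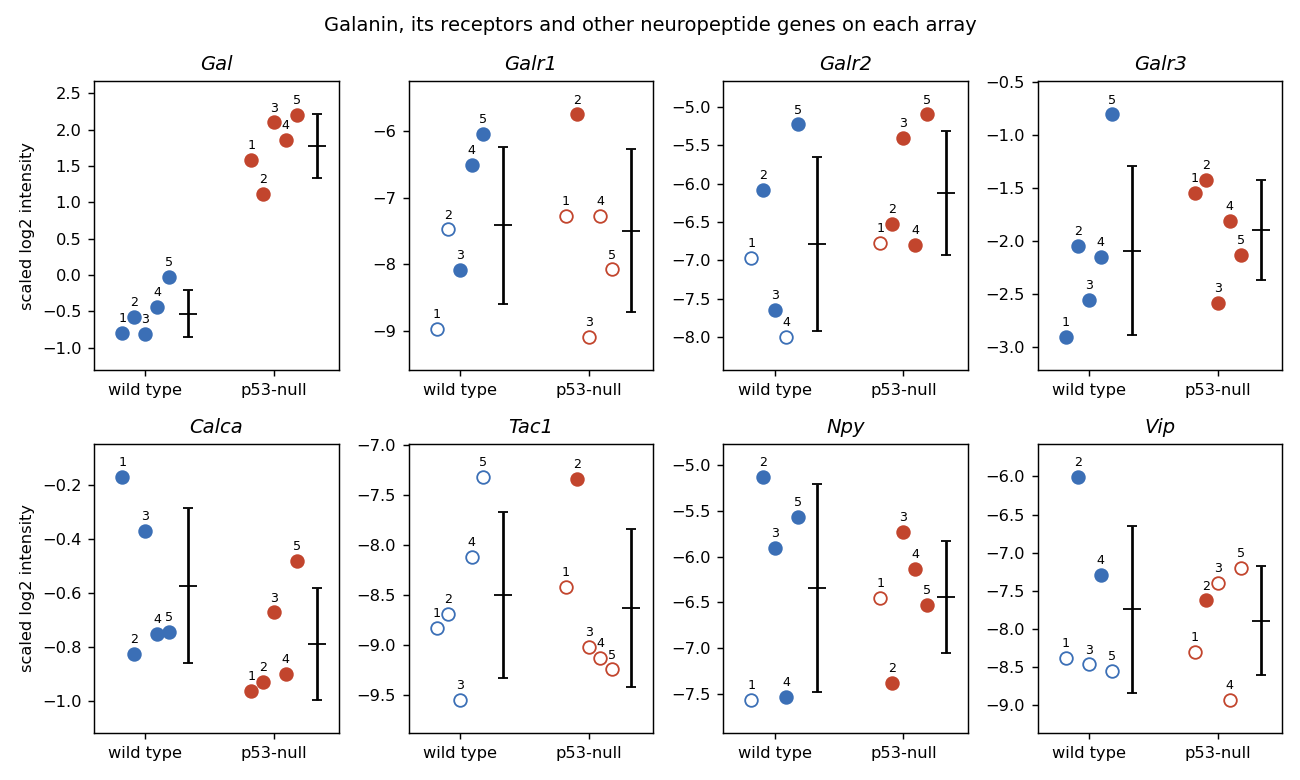
Scaled log2 intensity (vertical axis) of the leading probe of each of the 8 genes on the 5 wild-type (blue) and 5 p53-null (red) arrays, numbered by replicate. Filled points were well above background, open points were not, and bars show the mean ± SD; Gal is the only panel in which the groups are apart, with wild type at -0.81 to -0.029 and p53-null at 1.11 to 2.20.

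The Gal difference was as large without the array that stood apart. It was 2.43 ± 0.22 (5.37-fold) when the array labelled wild type 5 was left out, and between 2.19 and 2.46 with each array left out in turn. Set between the mean of the other wild-type arrays (0) and that of the p53-null arrays (1), the array labelled wild type 5 lay at 0.26 for Gal. In deposited intensity units, not scaled between arrays, it read 2333, inside the range of 2117 to 3241 of the other wild-type arrays. The part of scaling in its position was not tested. The arrays lay on 6 slides: within the slides of the lower number range, with 3 wild-type and 4 p53-null arrays, the difference was 2.40 ± 0.23. On the single slide that held both genotypes it was 1.55, p53-null array 2 minus wild-type array 4, and within the higher number range it was 1.74. Both rest on p53-null array 2, the lowest of its group for Gal. Probes with the GC content of the Gal probe (46.7%, 232 probes above background on all arrays, Gal included) had a median difference of 0.15 between the genotypes. On the array labelled wild type 5 these probes stood a median of 0.17 above their own mean.

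**Figure D2:**
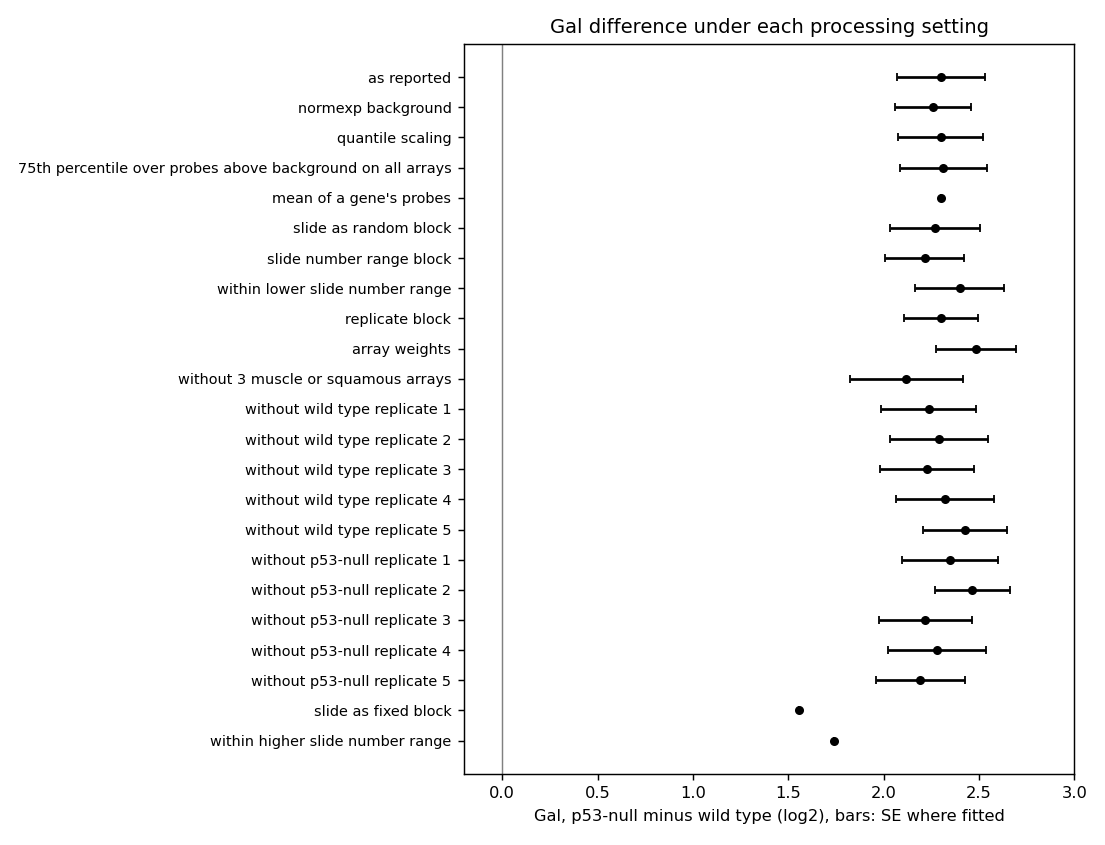
Difference of Gal, p53-null minus wild type in log2 units (horizontal axis), as reported and under each other processing setting or array left out (rows), with the SE where the setting gave a fit. Fitted values lie between 2.12 and 2.48, and the lowest values, 1.55 and 1.74, come from comparisons with p53-null array 2 alone.

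The galanin receptors gave weaker signals with overlapping groups. Galr3 was well above background on all 10 arrays. It read -2.90, -2.05, -2.55, -2.15 and -0.81 on wild-type arrays 1 to 5 and -1.54, -1.43, -2.58, -1.81 and -2.13 on p53-null arrays 1 to 5. The highest Galr3 value was on the array labelled wild type 5, above every p53-null array, and the difference was 0.19 ± 0.38. Without that array it was 0.51 ± 0.27. The Galr3 probe is rich in GC (66.7%). The 23 probes of that GC content, Galr3 included, stood a median of 0.82 above their own mean on the array labelled wild type 5. Galr3 itself stood 1.19 above its mean there, and the part of GC content in the Galr3 value was not tested.

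Galr2 was near the detection limit. It was well above background on 3 wild-type and 4 p53-null arrays. Its values were -6.97, -6.08, -7.64, -8.00 and -5.23 in wild type and -6.78, -6.53, -5.40, -6.80 and -5.10 in p53-null lung, with the array labelled wild type 5 near the top of both groups. The difference was 0.66 ± 0.57 with that array and 1.05 ± 0.51 without it, and within the lower slide number range it was 0.072 ± 0.58. The receptor gene with the lowest detection was Galr1, whose brighter probe passed on 3 wild-type arrays and 1 p53-null array. That probe ran from -8.98 to -6.03 in wild type and from -9.09 to -5.75 in p53-null lung (difference -0.079 ± 0.70, or 0.27 ± 0.70 without the array labelled wild type 5, which turns the sign). On no array did the second Galr1 probe rise well above background. Galr1 did not pass the filter for testing.

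Calca was the contrast gene with the most even signal, well above background on all 10 arrays with both probes. The brighter probe, which the files assign to transcript variant 1, read -0.17, -0.83, -0.37, -0.75 and -0.74 in wild type and -0.96, -0.93, -0.67, -0.90 and -0.48 in p53-null lung. The second probe, assigned to transcript variant 2, ran from -3.26 to -2.21 and from -3.22 to -2.84. Groups overlapped for both probes, and the differences were -0.22 ± 0.16 and -0.32 ± 0.20. Without the array labelled wild type 5 they were -0.26 ± 0.17 and -0.46 ± 0.17. Calca marks the neuroendocrine cells of the airway lining as well as sensory nerve fibres.

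Npy, the peptide of sympathetic nerve fibres, passed on 4 arrays of each genotype. It spread widely, from -7.57 to -5.13 in wild type and from -7.38 to -5.72 in p53-null lung, with a difference of -0.10 ± 0.53. The sign turned without the array labelled wild type 5 (0.090 ± 0.56). Vip, a peptide of airway-relaxing nerves, passed on 2 wild-type arrays and 1 p53-null array, and its difference was -0.15 ± 0.53 over values from -8.93 to -6.01 (-0.35 ± 0.57 without the array labelled wild type 5). The highest Vip and Npy values were both on wild-type array 2, the array with high skeletal muscle and squamous epithelial genes; the part of those tissues was not tested. Tac1 was at the limit of the assay: of its 3 probes, 1 passed on a single p53-null array and the others on none, so no fold is given.

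In all, 5 of the 8 genes passed the filter (Gal, Galr2, Galr3, Calca and Npy), while Galr1, Tac1 and Vip did not. Of the 7 genes other than Gal, 5 had leading-probe differences smaller than 1 SE. Differences smaller than 1 SE do not show that these genes are equal in the genotypes, since the SE of the low genes reached 0.70.

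Genes that work with these peptides were taken from lists of other precursors, receptors, processing enzymes and galanin receptor effectors. Of 129 tested genes, 7 were higher and 3 lower in p53-null lung, 7.75% against 7.49% of all genes (4.59% higher and 2.89% lower), a share near the background. The median difference was 0.036 over the lists and 0.050 over all genes. Without the array labelled wild type 5, 34 of the 129 were called (26.4%; 21 higher, 13 lower), against 31.3% of all genes (17.1% higher, 14.3% lower). Within the lower slide number range none was called by limma, against 0.0758% of all genes, with 14 at an unadjusted p under 0.05. The count moved with nearly every array: it was 8, 4, 4 and 6 without wild-type arrays 1 to 4, and 3, 4, 2, 5 and 4 without p53-null arrays 1 to 5. The share of all genes moved as well. It was 4.57%, 1.77%, 1.52% and 2.69% without wild-type arrays 1 to 4, and 1.65%, 1.92%, 0.909%, 2.36% and 1.58% without p53-null arrays 1 to 5.

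Among the other precursors, 2 of 37 were called (5.41%, against 7.49% of all genes). Calcb, which encodes a second form of calcitonin gene-related peptide, fell by 0.82 ± 0.18 log2 units (limma adjusted p = 0.0328), from -5.11 to -4.15 in wild type to -5.71 to -5.04 in p53-null lung, with a small overlap. Calcb and Calca are near copies, and signal shared between them was not tested. Kiss1, the kisspeptin precursor, was higher by 0.48 ± 0.11 (limma adjusted p = 0.0345). Its receptor gene Kiss1r was also higher, by 0.75 ± 0.19 (limma adjusted p = 0.0469). For Kiss1r the array labelled wild type 5 read -2.93, inside the p53-null range of -3.07 to -2.85, while the other wild-type arrays ran from -4.01 to -3.79; without it the difference was 0.94 (limma adjusted p = 3.35e-04), while Calcb stood at -0.82 and Kiss1 at 0.54. When each array was left out in turn (10 fits), Calcb remained called in 2 fits and Kiss1 and Kiss1r in 1 each.

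Peptide receptors had 3 of 39 genes called (7.69%, against 7.49% of all genes), all higher. Besides Kiss1r these were Adcyap1r1, the receptor of the Vip relative PACAP, at 0.66 ± 0.12 (limma adjusted p = 0.0202), and the somatostatin receptor gene Sstr4 at 0.56 ± 0.12 (limma adjusted p = 0.0328). These were 0.74 and 0.46 without the array labelled wild type 5. A second Adcyap1r1 probe differed by 0.0054 ± 0.26 and a second Sstr4 probe by 0.14 ± 0.39, so in both genes the call rests on the brighter probe. With each array left out in turn, Adcyap1r1 was called in 8 fits and Sstr4 in 2.

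Of 24 genes for peptide processing, storage and breakdown, only Mme was called (4.17%, against 7.49% of all genes). Mme encodes neprilysin, a surface peptidase that degrades substance P and other peptides. It fell by 0.60 ± 0.10 log2 units (limma adjusted p = 0.0168), with wild type at -0.56 to -0.071 and p53-null lung at -1.12 to -0.85, and was called in 9 of the 10 leave-one-out fits. Its difference without the array labelled wild type 5 was -0.62. A second Mme probe differed by -0.12 ± 0.082.

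The galanin receptor effectors had 4 of 29 genes called (13.8%, against 7.49% of all genes). Without the array labelled wild type 5 the share was 34.5%, against 31.3% of all genes. Gnaz, an inhibitory G protein subunit, rose by 0.55 ± 0.079 (limma adjusted p = 0.0130). The spot on wild-type array 3 was flagged and left out of its fit. Its other probes gave 0.61 ± 0.17 and 0.81 ± 0.21, with overlapping groups on both. On these the array labelled wild type 5 read -2.61 and -3.21, inside the p53-null ranges of -2.84 to -2.55 and -3.36 to -3.07. On the leading probe it was the lowest wild-type array (-2.64). Arrb2, a beta-arrestin that desensitises receptors, rose by 0.64 ± 0.096 (limma adjusted p = 0.0126). Plcb2, a phospholipase C, rose by 0.53 ± 0.10 (limma adjusted p = 0.0232), with other probes at 0.76 ± 0.16 and 0.13 ± 0.32. Gnai3, an inhibitory G protein subunit, fell by 0.32 ± 0.081 log2 units (limma adjusted p = 0.0459). Leaving out the array labelled wild type 5 gave 0.51 for Gnaz, 0.65 for Arrb2, 0.54 for Plcb2 and -0.35 for Gnai3. Arrb2 lies on chromosome 11, 0.86 Mb from Trp53, the altered locus. Gnaz and Arrb2 were called in all 10 leave-one-out fits, Plcb2 in 4 and Gnai3 in 1. Arrb2 and Plcb2 are also abundant in white blood cells and Gnaz in platelets.

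**Figure D3:**
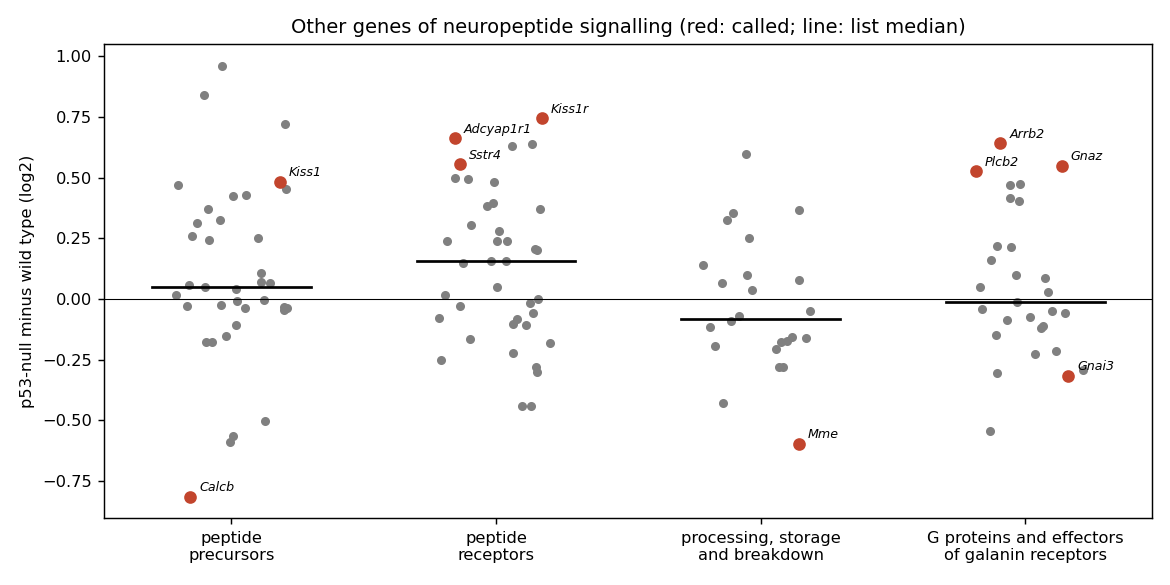
Difference, p53-null minus wild type in log2 units (vertical axis), of each tested gene of the 4 lists (grey points; red where called by limma), with the list median as a line. Medians lie at 0.050, 0.16, -0.081 and -0.015 from left to right, and 10 of 129 genes are called, 7 of them higher.

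Cells that make or receive neuropeptides were followed through marker genes, scored as the mean deviation from each gene's mean over the 10 arrays. None of 13 tested markers of pulmonary neuroendocrine cells was called by limma, with scores of -0.25 to 0.15 in wild-type and -0.13 to 0.11 in p53-null lung. None of 11 markers of peripheral neurons was called, with scores of -0.53 to 0.36 and 0.038 to 0.13, and none of 10 Schwann cell markers. As only 7.49% of all genes were called, no call among so few markers does not show that these cells were unchanged. Without the array labelled wild type 5, 2 neuroendocrine (1 higher, 1 lower), 2 neuronal (both higher) and 3 Schwann cell markers (1 higher, 2 lower) were called, which is 15.4%, 18.2% and 30% against 31.3% of all genes. White blood cell markers did separate the genotypes: 8 of 11 tested neutrophil markers, 8 of 10 B cell markers and 6 of 12 T and NK cell markers were called, all higher in p53-null lung. These shares were 72.7%, 80% and 50%, against 7.49% of all genes called and 4.59% called higher. Neutrophil scores ran from -1.05 to -0.47 in wild type and from 0.10 to 1.54 in p53-null lung. B cell scores ran from -1.33 to -0.20 and from 0.31 to 1.29. The counts were 8, 9 and 7 without the array labelled wild type 5, again all higher. On p53-null arrays 1 to 5, where Gal read 1.59, 1.11, 2.10, 1.85 and 2.20, neutrophil scores were 1.54, 0.25, 0.89, 0.59 and 0.10. B cell scores on the same arrays were 1.29, 0.45, 0.54, 0.31 and 0.62, and T and NK cell scores 0.49, 0.31, 0.56, 0.082 and 0.34. The part of these cells in the Gal difference was not tested.

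**Figure D4:**
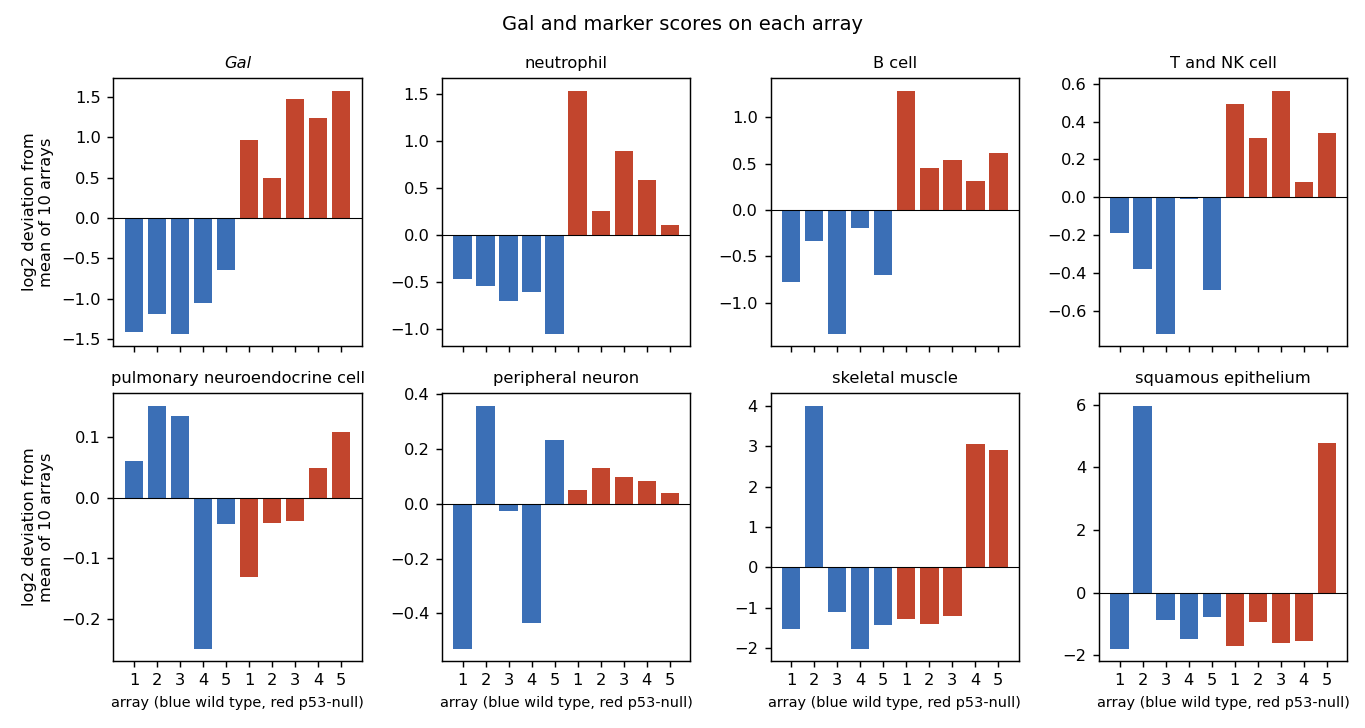
Deviation from the mean of the 10 arrays in log2 units (vertical axis) for Gal and for 7 marker scores on wild-type (blue) and p53-null (red) arrays 1 to 5; vertical scales differ between panels. Gal and the 3 white blood cell scores separate the genotypes, the neuroendocrine and neuronal scores do not, and skeletal muscle and squamous scores are high on single arrays such as wild-type array 2 at 4.01 and 5.98.

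Genes around Gal were examined next. Within 1 Mb of the Gal probe, 8 of 50 tested genes were called, all higher in p53-null lung. This was 16%, against 7.49% of all genes called in either direction and 4.59% called higher. The nearest, Tesmin, a testis gene with metallothionein-like cysteine-rich domains, is transcribed towards Gal from the other strand. Its leading probe, 4.11 kb from the Gal probe, read -4.57, -4.41, -4.91, -4.10 and -3.98 in wild type and -3.54, -3.53, -3.13, -3.53 and -3.31 in p53-null lung. The groups did not overlap, and Tesmin rose by 0.99 ± 0.18 (limma adjusted p = 0.0195; called in 8 of the 10 leave-one-out fits). A second probe, 3.76 kb from the Gal probe, gave 0.91 ± 0.21. The leading probe gave 1.09 without the array labelled wild type 5. The third probe, 19.9 kb away, was well above background on 3 wild-type arrays and no p53-null array. Its difference, of the other sign and not sized for that reason, read -0.68 ± 0.69. With the mean of its probes Tesmin differed by 0.41 ± 0.22 and was not called (limma adjusted p = 0.300).

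The next genes on that side, 4833417J20Rik (0.089 ± 0.14) and Cpt1a (-0.12 ± 0.10), which encodes an enzyme of fatty acid entry into mitochondria, were not called. The other 7 called genes all lay between 486 and 861 kb on the far side of Gal. They were the osteoclast and T cell proton pump gene Tcirg1 (0.44 ± 0.094), Aldh3b2 (0.58 ± 0.13), 4833408A19Rik (0.37 ± 0.071), the lymphocyte gene Ptprcap (0.91 ± 0.18), the carnosine synthase gene Carns1 (0.83 ± 0.16), the lymphocyte gene Tbc1d10c (1.36 ± 0.17) and Ankrd13d (0.80 ± 0.15). A second Aldh3b2 probe differed by -0.21 ± 0.84. Limma adjusted p for these 7 ran from 0.00807 for Tbc1d10c to 0.0307 for Aldh3b2. Without the array labelled wild type 5, 21 of the 50 were called in either direction (42%, against 31.3% of all genes). Of the 50 tested genes 15 were called higher, while 17.1% of all genes tested were called higher. The 8 genes were among those called, with differences from 0.41 to 1.38. The count was 6, 4, 3 and 7 without wild-type arrays 1 to 4, and 3, 2, 1, 5 and 2 without p53-null arrays 1 to 5. The share of all genes called was 4.57%, 1.77%, 1.52% and 2.69% without wild-type arrays 1 to 4. Without p53-null arrays 1 to 5 that share was 1.65%, 1.92%, 0.909%, 2.36% and 1.58%. By limma none was called within the lower slide number range (9 at an unadjusted p under 0.05) or without the 3 arrays with muscle or squamous genes (14 at an unadjusted p under 0.05). In these 2 fits 0.0758% and 0.0474% of all genes were called.

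**Figure D5:**
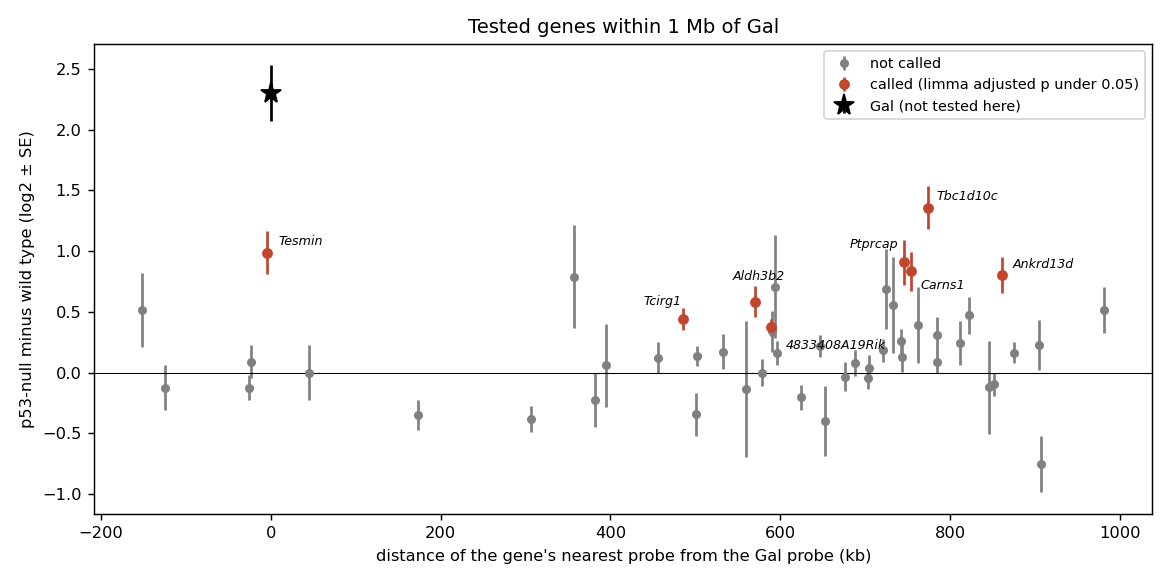
Difference, p53-null minus wild type in log2 units with SE (vertical axis), against the distance in kb from the Gal probe (horizontal axis) for the 50 tested genes within 1 Mb. Gal (star, 2.30) and Tesmin (0.99) stand beside genes that were not called, and the other 7 called genes lie between 486 and 861 kb.

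The genes whose signals followed Gal most closely over the 10 arrays were sought among 17996 genes above background on every array. Genes left with the name in the files, for lack of a matching gene symbol, were not ranked. Among the ranked genes, the highest Pearson correlations belonged to Fgf11 (r = 0.98, Spearman rho = 0.94), Cuedc1 (r = 0.97, rho = 0.87), Dynlt1b (r = 0.97, rho = 0.94), Galnt6 (r = 0.96, rho = 0.88) and Med1 (r = 0.96, rho = 0.78). All 5 were higher in p53-null lung, by between 0.42 (Dynlt1b) and 2.47 (Cuedc1), so the genotype difference they share with Gal enters these correlations. Fgf11, Cuedc1 and Med1 lie on chromosome 11, 0.22, 18.6 and 28.6 Mb from Trp53. A second Fgf11 probe differed by 0.43 ± 0.53, and with the mean of its probes Fgf11 correlated at r = 0.64. Further Med1 probes differed by 0.14 ± 0.11 and 0.27 ± 0.12, against 2.02 for the leading probe. With the genotype means removed, the correlations fell to between 0.16 for Med1 and 0.75 for Fgf11.

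A separate set followed Gal within the genotypes. On the deviations from the genotype means, the highest correlations among the same ranked genes were those of Mkrn2 (r = 0.90), Lrp12 (r = 0.88), Rasgrp2 (r = 0.88), Mospd1 (r = 0.88) and Rtl8b (r = 0.88). The Gal deviations ran from -0.28 to 0.50 in wild type, highest on the array labelled wild type 5, and from -0.66 to 0.43 in p53-null lung, lowest on array 2. Without the array labelled wild type 5 these correlations were between 0.84 and 0.88. With the mean of a gene's probes they were -0.070 for Mkrn2, -0.054 for Mospd1 and 0.28 for Rasgrp2, and with normexp background correction between 0.68 and 0.75 for Mkrn2, Rasgrp2, Mospd1 and Rtl8b. None of these 5 genes was called between the genotypes by limma, with differences from -0.030 to 0.17. The 10 arrays are few against 17996 genes, so the highest of so many correlations can be large without any relation.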

How the data were processed

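Whole-lung RNA of 5 wild-type and 5 p53-null mice was measured on 10 one-colour arrays. The submitters' processing notes name Agilent Feature Extraction 9.5 as the software. Per the file headers, the authors' deposited intensity has background and spatial trend removed array by array; arrays were not scaled to each other. The series' value table holds the same numbers (largest difference 0). Probe coordinates are on mm7, per the file headers.

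Here the 75th percentile of the 43379 non-control spots was subtracted on the log2 scale in each array. Spots flagged as outliers were dropped, replicate spots averaged, and the brightest probe stood for a gene. Probes were named through accessions (22951), symbols (6659) and synonyms (3109) of a RefSeq table of GRCm38; 8455 kept the file's name. Genotypes were compared with limma 3.58.1 in R 4.3.3, Benjamini-Hochberg adjusted over 21116 genes; the SE of single probes comes from the same fit over all 41174 probes. The number of arrays limits the precision.

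Trp53, all 8 genes, every called gene of the lists and the called or nearest genes within 1 Mb of Gal are named. So are the 5 genes most like Gal by either correlation, among genes that did not keep the file's name. The genes and lists were chosen with earlier results of these data known. Replicate numbers do not pair the arrays (correlations of deviations from -0.22 to 0.0011). Alternatives covered background, scaling, filter, probe choice, slides, replicate number, array weights and left-out arrays; the slide as a fixed block, the higher slide range and the counts around Gal under each alternative were added after seeing the data. The limma step was tested on simulated data with 20606 genes: 35.8%, 70.1% and 81.8% of genes changed 1.5-, 2- and 4-fold were recovered. Only 67, 67 and 66 genes were changed. Each gene was drawn independently, without effects of array or slide, so these rates need not hold for the real arrays.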

Additional observations from a re-analysis of the deposited data

Results flagged for a closer look

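Within each genotype, an extreme array counts as an outlier here if more than 0.71 of the range of the 5 values (Dixon's critical value) separates it from its neighbour. Chance does this in about 1 of 20 groups, and 8 of 110 groups did so here. None was a probe of Gal, its receptors or the contrast genes Calca, Tac1, Npy and Vip. Among named genes they were the Trp53 probe printed in 1 spot on the array labelled wild type 5 (1.24, nearest 0.0063), Kiss1r on the same array (-2.93, nearest -3.79), Cuedc1 on the same array (-1.79, nearest -2.40) and Rtl8b on the same array (5.46, nearest 5.21). Kiss1 on p53-null array 2 read -3.31, with the nearest at -3.65. Among marker scores they were skeletal muscle on wild-type array 2 (4.01, nearest -1.11), squamous epithelium on wild-type array 2 (5.98, nearest -0.79) and squamous epithelium on p53-null array 5 (4.77, nearest -0.95).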

How the results depend on the processing

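The Gal difference stayed between 2.12 and 2.48 in 20 other fits or settings; with each array left out it was 2.19 to 2.46. It moved by over 1 SD with the slide as a fixed block (1.55) and within the higher slide number range (1.74), each with 1 p53-null array. No other member's leading-probe difference moved by over 1 SD in 140 alternatives. Calca stayed negative and Galr2 positive, while Galr1, Galr3, Tac1, Npy and Vip changed sign in at least 1 alternative. With the replicate block, the Gal difference was 2.30 ± 0.19; 26 of all genes were called, 0 of the listed pathway genes (22 at unadjusted p under 0.05) and 0 of the genes within 1 Mb of Gal (13 at unadjusted p under 0.05).

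Counts of called genes, given for all genes, the pathway lists and the 1 Mb window, were 1581, 10 and 8 as reported. Within the lower slide number range they were 16, 0 and 0 (unadjusted p under 0.05 by limma for 2565, 14 and 9). Without 3 arrays with muscle or squamous genes they were 10, 0 and 0 (unadjusted p under 0.05 by limma for 3480, 19 and 14). With array weights they were 6516, 29 and 20. With no filter on dim genes 538 genes and 5 pathway genes were called, with the mean of a gene's probes 998 and 5, and blocking on slide number range left 697 of all genes. Each array left out gave 192 to 6619, 2 to 34 and 1 to 21. The cause of these shifts was not tested. Of 414 alternatives for the called pathway and neighbouring genes, 169 lost the call and 0 changed direction. Correlations with Gal moved by over 1 SE of Fisher's z in 13 of 150 alternatives. Low signal over background limits Galr1, Galr2, Tac1, Npy and Vip.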
